A study of Mus musculus with 12 samples.

Results

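The cytosolic ribosomal protein genes were followed in the visceral white fat of mice of the FVB/N strain. They were taken as every gene symbol of the count files of the form Rpl or Rps followed by a number and an optional a or x, together with Rplp0, Rplp1, Rplp2 and Rpsa. This rule used no expression value and found 76 genes among 50559 symbols, 75 of which passed the filter on low counts. The study crossed diet with a cardiac transgene, and 12 libraries were made, 3 in each of 4 groups. The transgenic high-fat group and the transgenic control-diet group carried αMHC tTA together with αMHC TGFb, a pair of constructs under the heart muscle α-myosin heavy chain promoter that makes TGF-b1 in the heart. The wild-type high-fat group and the wild-type control-diet group carried αMHC tTA alone, so all 4 groups shared the tTA driver. High-fat food held 60% of its energy as fat (5.21 kcal/g) and was given to mice of 8 to 10 weeks for either 2 or 6 weeks, without a label saying which applied to a given library. Control chow held 17% of its energy as fat (3.1 kcal/g), and the same age text stands on the control-diet libraries. The labels do not say whether each library came from its own mouse, so p-values here speak for the variation among libraries, part or all of which may be technical. The transgene is driven in the heart, and RNA from fat therefore gives no check of genotype.

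The cytosolic ribosome joins a small and a large subunit, each an rRNA scaffold covered with ribosomal proteins. The Rps genes and Rpsa encode proteins of the small subunit, which reads the mRNA. The Rpl genes encode proteins of the large subunit, which forms the peptide bond, and Rplp0, Rplp1 and Rplp2 build its stalk, where elongation factors dock. These proteins are needed in near equal amounts, and their mRNAs are among the most abundant of most tissues, white fat included. Many of them begin with a 5′ terminal oligopyrimidine (TOP) motif, a C followed by a run of C and T bases, through which mTOR and Larp1 control their translation. An RNA level does not show translation.

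Start sites were available for 56 of the 76 genes, from the RefSeq promoter table (GRCm38.p6), which holds 250 bases before and 50 bases after each annotated start. A start C followed by at least 4 further C or T bases stood at the annotated start of 13 of the 56 genes (23.2%), against 3.01% of all 27025 genes in the table. These 13 were counted on the gene's own strand only, and where the annotated start is off by a base no run is found. The ETS core CCGGAAG, searched on both strands, was in the 300-base windows of 23 of the 56 genes (41.1%), against 9.93% of all genes. The YY1 core AAGATGGC, also on both strands, was in 5 (8.93%) against 3.19%, and the TATA box TATAAA, on both strands, was in 6 (10.7%) against 15.7%. An ETS match and a YY1 match can share the bases AAG, and a match describes the letters of the window, not a bound site. The 6 windows below run from 10 bases before the start to 20 bases from it, and capitals mark the run of C and T bases that begins at the start. Rps6, Rps27 and Rps3 were called in the diet comparison, Rplp2 and Rpsa were named in the panel of well known members, and Rps18 had 1 library far above the other 11. Rps6 lies at chr4:86857348-86857377 (minus strand), Rps27 at chr3:90213629-90213658 (minus), Rplp2 at chr7:141447641-141447670 (plus), Rps18 at chr17:33955646-33955675 (minus), Rps3 at chr7:99483690-99483719 (minus) and Rpsa at chr9:120127756-120127785 (plus).
Rps6: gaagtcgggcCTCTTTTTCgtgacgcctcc
Rps27: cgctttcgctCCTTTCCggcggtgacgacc
Rplp2: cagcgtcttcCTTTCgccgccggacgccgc
Rps18: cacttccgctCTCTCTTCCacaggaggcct
Rps3: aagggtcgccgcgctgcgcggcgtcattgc
Rpsa: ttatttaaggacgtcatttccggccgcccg
The run was 9 bases in Rps6 and in Rps18, 7 in Rps27 and 5 in Rplp2, and neither Rps3 nor Rpsa had one at the annotated start.

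Upstream of the start, the promoters of Rps6 and Rps27 are shown because both genes were called and each holds one of the motifs. The 100 bases before the Rps6 start (chr4:86857368-86857467, minus strand) hold the ETS core, in capitals, with its first base 91 bases upstream, and the 100 bases before the Rps27 start (chr3:90213649-90213748, minus strand) hold the YY1 core, in capitals, 74 bases upstream.
Rps6: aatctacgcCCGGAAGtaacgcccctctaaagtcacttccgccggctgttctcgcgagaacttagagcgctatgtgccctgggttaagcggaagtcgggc
Rps27: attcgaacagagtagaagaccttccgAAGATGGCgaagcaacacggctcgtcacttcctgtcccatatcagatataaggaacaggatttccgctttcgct
Changes on the high-fat diet, described in full further on, were set beside the runs. The 13 genes with a run had a median log2 fold change of -0.37 on the high-fat diet in transgenic tissue, against -0.34 for the 43 genes without one. In wild-type tissue the medians were -0.19 for the 13 genes with a run and -0.23 for the 43 without one. Some of the 43, such as Rpl7a and Rps9, start on a T within a stretch of C and T bases. The split by annotated start therefore does not divide TOP mRNAs from others, and these medians cannot show whether the 2 kinds differ.

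Libraries held 20101240 to 21337312 gene counts each. The 8 adipocyte markers (Adipoq, Plin1, Lep and others) were all detected and summed to between 24620 and 36070 counts per 1000000 gene counts (CPM) in every library. Several libraries stood apart in genes of other tissues. Epithelial markers summed to 355 CPM in transgenic control-diet library 2 and 70.9 CPM in wild-type control-diet library 1, against 8.48 to 24.7 CPM in the other 10. Skeletal and cardiac muscle markers summed to 436 CPM in wild-type high-fat library 3 and 640 CPM in transgenic control-diet library 3, against at most 80.4 CPM elsewhere. Liver markers summed to 320 CPM in wild-type high-fat library 2 and to at most 64.5 CPM elsewhere. In whole tissue, fewer cells of a type and less RNA per cell cannot be told apart.

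The 76 genes together took 1.41% to 2.54% of all gene counts in a library. The share was 1.78%, 1.47% and 1.41% in the transgenic high-fat libraries, 1.62%, 1.98% and 1.87% in the wild-type high-fat libraries, 2.16%, 1.76% and 2.10% in the transgenic control-diet libraries, and 1.93%, 1.71% and 2.54% in the wild-type control-diet libraries. The mean was 1.55% ± 0.202 in the transgenic high-fat group, 1.83% ± 0.186 in the wild-type high-fat group, 2.01% ± 0.215 in the transgenic control-diet group and 2.06% ± 0.430 in the wild-type control-diet group (SD, n = 3 each). Both high-fat groups had the lower mean within their genotype, but high-fat and control-diet libraries overlapped in both genotypes. The large subunit genes took 0.931% ± 0.116 of counts in the transgenic high-fat group and 1.18% ± 0.123 in the transgenic control-diet group, and the small subunit genes took 0.622% ± 0.0861 in the transgenic high-fat group and 0.830% ± 0.0924 in the transgenic control-diet group (SD, n = 3 each), so that both subunits had the lower share on the high-fat diet.

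**Figure D1:**
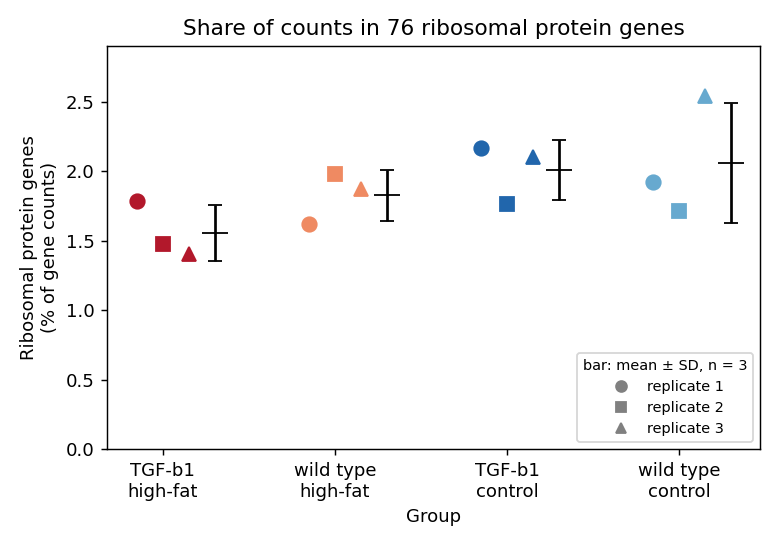
Share of all gene counts (percent, vertical axis) taken by the 76 ribosomal protein genes in each library, by group, with marker shape for replicate number and bars for the mean and SD of 3 libraries. The transgenic high-fat libraries lie between 1.41% and 1.78%, and wild-type control-diet library 3 is the highest of the 12 at 2.54%.

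Levels of the genes differed widely for proteins used in near equal amounts. Per kilobase of transcript (the shortest principal transcript of GENCODE M21), the highest mean over the 12 libraries was that of Rpl41, which encodes the smallest ribosomal protein, at 1491 CPM per kb. Rplp1, the acidic stalk protein, followed at 1132 CPM per kb, then Rps15 at 940 CPM per kb, Rps27 at 817 CPM per kb and Rpsa, the laminin receptor family protein of the small subunit, at 652 CPM per kb. The median of the 75 genes that passed the filter was 290.7 CPM per kb, with quartiles of 189.8 and 413.5 CPM per kb. The lowest were Rpl28 at 1.08 and Rpl29 at 1.93 CPM per kb, followed by Rpl35a at 33.5, Rps2 at 40.7 and Rpl34 at 51.5 CPM per kb. The transcript taken for Rps20 was 3706 bases long, so its 75.9 CPM per kb depends on that length. Those of Rpl5 (2045 bases) and Rps3 (1908 bases) were also long, and every value per kb depends on the transcript taken.

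**Figure D2:**
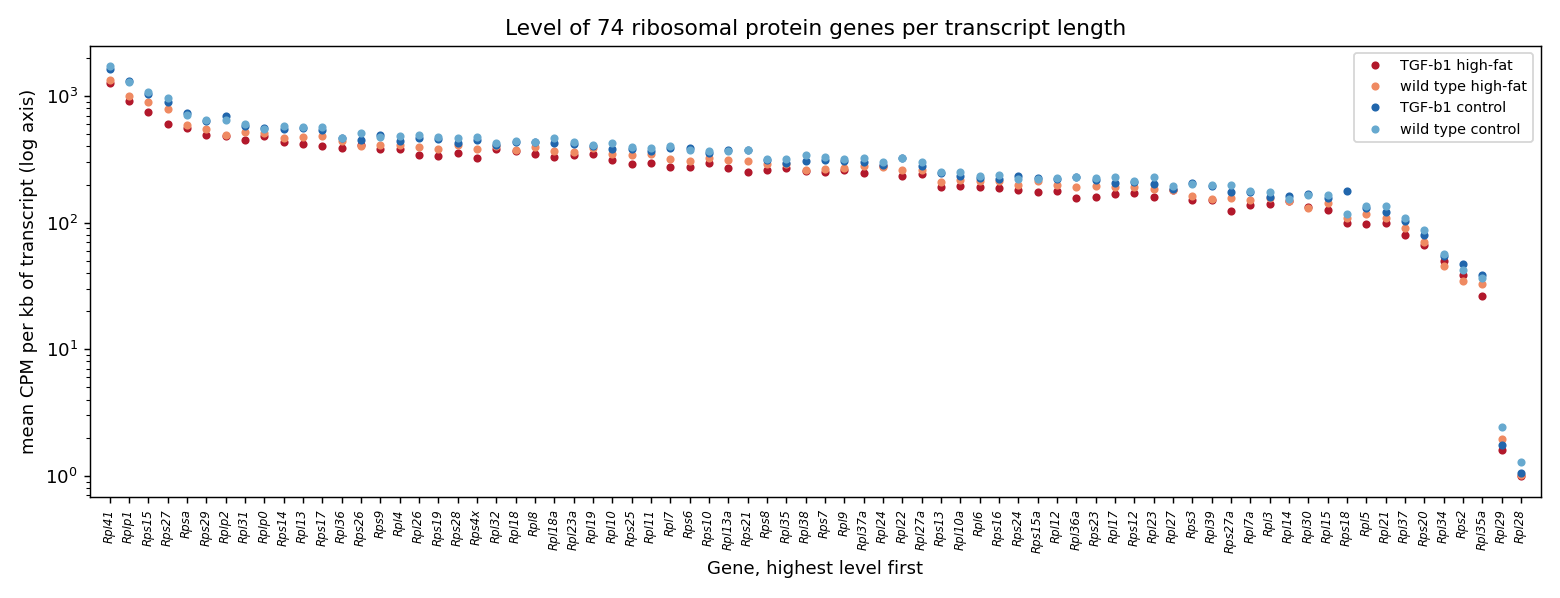
Mean level in each group (CPM per kb of transcript, log axis) of 74 of the ribosomal protein genes that passed the filter, ordered from the highest to the lowest mean over 12 libraries. Most genes lie between 100 and 1000 CPM per kb, and Rpl29 and Rpl28 stand far below the rest near 1 to 2 CPM per kb.

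The lowest values touch how reads were counted. Ribosomal protein genes have many processed pseudogenes, and the count files hold reads with more than 1 alignment in an entry of their own, apart from the genes. The count files held 318 entries named as pseudogenes of these genes, which took 0.0650% to 0.128% of counts, equal to 4.63% to 5.30% of the counts of the genes themselves. Over all 12 libraries Rpl28 had 212 counts and Rpl29 had 283. Of the counts of a gene and its named pseudogenes together, the pseudogenes held 96.7% for Rpl28, 74.5% for Rpl34 and 74.0% for Rps2, and 29.7% for Rps18, 29.6% for Rpl3 and 13.7% for Rpl29. Rpl28 and Rpl29 passed the filter with 1 to 35 and 13 to 44 counts per library, and their fold changes carry standard errors of 0.42 to 0.73 on the log2 scale in the diet comparisons. Over 100-base windows of its transcript, the median gene shared 45.7% of windows exactly with a transcript of another gene. Among the called genes, Rps27 shared 98.4% of its windows, with 2 other genes, and Rps6 shared 83.6%, with 9 other genes. The counts of both are therefore less certain. Adding the pseudogene counts to each gene left the number of genes called in the transgenic diet comparison at 6.

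On the high-fat diet in transgenic tissue, 6 of the ribosomal protein genes fell past the threshold and all 75 had fold changes below 1. Among them Rps6, the small subunit protein phosphorylated by S6 kinase, Rps3, which lines the mRNA entry side of the small subunit, Rps27, Rplp1 of the stalk and Rpl7 of the large subunit fell by between 0.47 and 0.58 on the log2 scale. All 75 tested genes had a negative log2 fold change, where 52.9% of all 16550 genes tested did, and the median over the 75 genes was -0.34 (a ratio of 0.793) against -0.02 over all genes. The test was edgeR's quasi-likelihood test on all 12 libraries with Benjamini-Hochberg adjustment over the 16550 genes. It called 6 of the 75 genes lower (8.00%) and 0 higher at an adjusted p below 0.05, against 3.34% of all genes called lower and 5.39% called higher. At an unadjusted p below 0.05, 40 of the 75 were lower, against 12.4% of all genes.

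Rps6 had 269, 234 and 220 CPM in the transgenic high-fat libraries, against 345, 332 and 343 CPM in the transgenic control-diet libraries. The groups did not overlap, and the fitted change was -0.50 ± 0.12 (log2, SE; adjusted p = 0.0281 by edgeR). In wild-type tissue Rps6 had 256, 277 and 283 CPM on the high-fat diet, against 327, 280.5 and 384 CPM on the control diet. Here the highest high-fat library lay above the lowest control-diet one, and the change of -0.28 ± 0.12 (log2, SE) did not pass (adjusted p = 0.249 by edgeR).

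Rps3, a small subunit protein that also acts in DNA repair, had 306, 279 and 273 CPM in the transgenic high-fat libraries, against 438, 362 and 387 CPM in the transgenic control-diet libraries, a change of -0.47 ± 0.13 (log2, SE; adjusted p = 0.0458 by edgeR). For Rps3 every high-fat library lay under every control-diet library in each genotype. Rps27, a zinc finger protein of the small subunit, had 206, 224 and 195 CPM in the transgenic high-fat libraries, against 374, 264 and 298 CPM in the transgenic control-diet libraries, a change of -0.58 ± 0.16 (adjusted p = 0.0427 by edgeR). It was the largest change among the called genes, and the transgenic high-fat libraries were also below all 3 wild-type high-fat libraries.

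Of the large subunit, Rplp1 had 465, 427 and 479.9 CPM in the transgenic high-fat libraries, against 775, 587 and 623 CPM in the transgenic control-diet libraries, a change of -0.53 ± 0.14 (log2, SE; adjusted p = 0.0395 by edgeR). Rpl7 had 350.2, 324 and 284 CPM in the transgenic high-fat libraries, against 498, 421 and 441 CPM in the transgenic control-diet libraries, a change of -0.51 ± 0.14 (adjusted p = 0.0413 by edgeR). Neither gene's groups overlapped. Of the other stalk proteins, Rplp2 had a change of -0.54 ± 0.16 (adjusted p = 0.0550) and Rplp0, the stalk base, one of -0.21 ± 0.13 (adjusted p = 0.328), and neither passed.

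**Figure D3:**
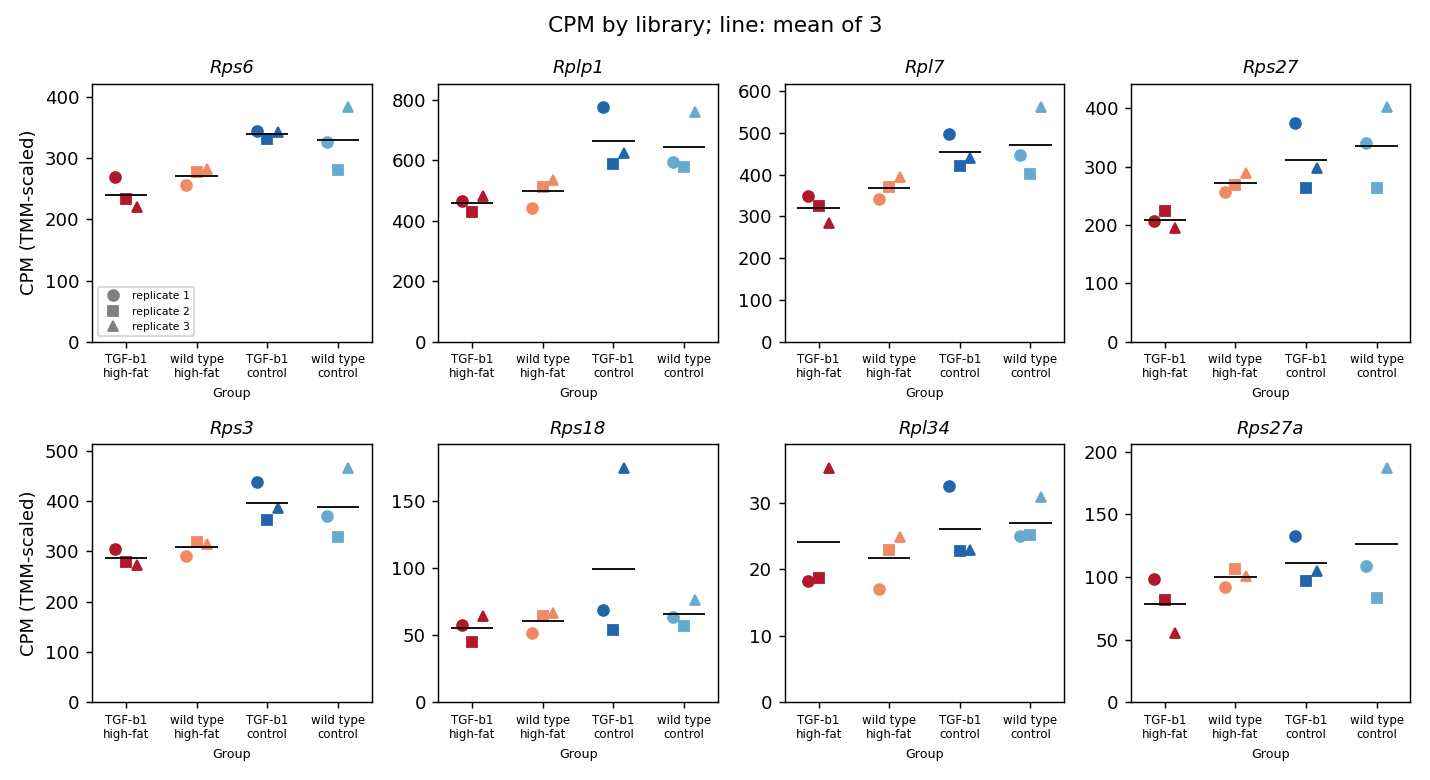
CPM in each library (scaled with TMM factors, vertical axis from 0) of 5 genes called on the high-fat diet in transgenic tissue, and of Rps18, Rpl34 and Rps27a, by group, with marker shape for replicate number and a line at the mean of 3 libraries. For Rps6, Rplp1, Rpl7, Rps27 and Rps3 all 3 transgenic high-fat libraries lie under all 3 transgenic control-diet libraries, and Rps18 and Rpl34 each have 1 library far above its group.

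Well known members that did not pass spanned a wide range of values in transgenic tissue. Rps4x, an X-linked small subunit protein, had a log2 fold change of -0.46 ± 0.14 (SE; adjusted p = 0.0523 by edgeR), the nearest to the threshold in this panel. Rpsa had -0.39 ± 0.13 (adjusted p = 0.0848), Rpl41 had -0.37 ± 0.15 (adjusted p = 0.135) and Rpl22, an RNA-binding large subunit protein, had -0.45 ± 0.16 (adjusted p = 0.106). Rpl5 and Rpl11, which with 5S rRNA bind Mdm2 when ribosome assembly fails, had -0.42 ± 0.14 and -0.33 ± 0.15 (adjusted p = 0.0884 and 0.180). Rpl3 and Rpl10, near the peptidyl transferase centre, had -0.18 ± 0.13 and -0.29 ± 0.15. Rps19 and Rps24, mutated in human Diamond-Blackfan anemia, had -0.43 ± 0.17 and -0.36 ± 0.15. Rps27a, made as a fusion with ubiquitin, had -0.51 ± 0.27, and the small proteins Rps28 and Rps29 had -0.27 ± 0.16 and -0.37 ± 0.16. The values nearest to no change were those of Rpl27 at -0.04 ± 0.13 and Rpl24 at -0.04 ± 0.15, 2 genes named after their values were seen.

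In 30 of the 75 genes (40.0%) every transgenic high-fat library lay under every transgenic control-diet library, against 13.5% of all genes. The 75 genes largely varied together over the libraries, as described further on, so counts over them are not counts of independent observations. The small subunit genes had a median log2 fold change of -0.38 (29 genes) and the large subunit genes one of -0.30 (46 genes). The authors' deposited table for this comparison, made by DESeq2 on these 6 libraries, gave an adjusted p under 0.05 to 13 ribosomal protein genes, all lower, and to 3.95% of its genes as lower. The call count was sensitive to the libraries: it was 0 with transgenic high-fat library 2 or 3 or transgenic control-diet library 1 left out, 0 without both epithelium-rich libraries or without both muscle-rich libraries, and 9 without wild-type control-diet library 3, while the median of the 75 genes stayed between -0.44 and -0.26 in all fits that left out 1 library.

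In wild-type tissue all 75 values were negative on the high-fat diet too, and no ribosomal protein gene passed the test. The median over the 75 genes was -0.25 on the log2 scale (a ratio of 0.841) against -0.01 over all genes, with 75 values negative where 52.1% of all genes were. edgeR called 0 of the 75 genes in either direction at an adjusted p below 0.05, against 0.453% of all genes called lower and 0.683% called higher. At an unadjusted p below 0.05, 12 were lower (16.0%), against 9.20% of all genes, and in 13 (17.3%) the groups did not overlap, against 12.4% of all genes. DESeq2 and limma-voom also called 0.

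Among the smallest p-values in wild-type tissue were those of 4 genes already described in transgenic tissue. Rplp1 had 443, 511 and 536 CPM in the wild-type high-fat libraries, against 594, 578 and 759.9 CPM in the wild-type control-diet libraries, a change of -0.38 ± 0.14 (log2, SE; adjusted p = 0.194 by edgeR). Rpl7 had 342, 370.3 and 394 CPM in the wild-type high-fat libraries, against 447, 402 and 562 CPM in the wild-type control-diet libraries, a change of -0.35 ± 0.14 (adjusted p = 0.205 by edgeR). Rps3 had 290.0, 319 and 314 CPM in the wild-type high-fat libraries, against 371, 329 and 466 CPM in the wild-type control-diet libraries, a change of -0.34 ± 0.13 (adjusted p = 0.205 by edgeR). Rps4x had a change of -0.32 ± 0.13 (adjusted p = 0.237 by edgeR). In all 4 genes the high-fat libraries lay under the control-diet libraries. Wild-type control-diet library 3 weighed on these values: it was the highest of the 12 libraries for 63 of the 75 genes, and without it the wild-type diet median was -0.10.

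**Figure D4:**
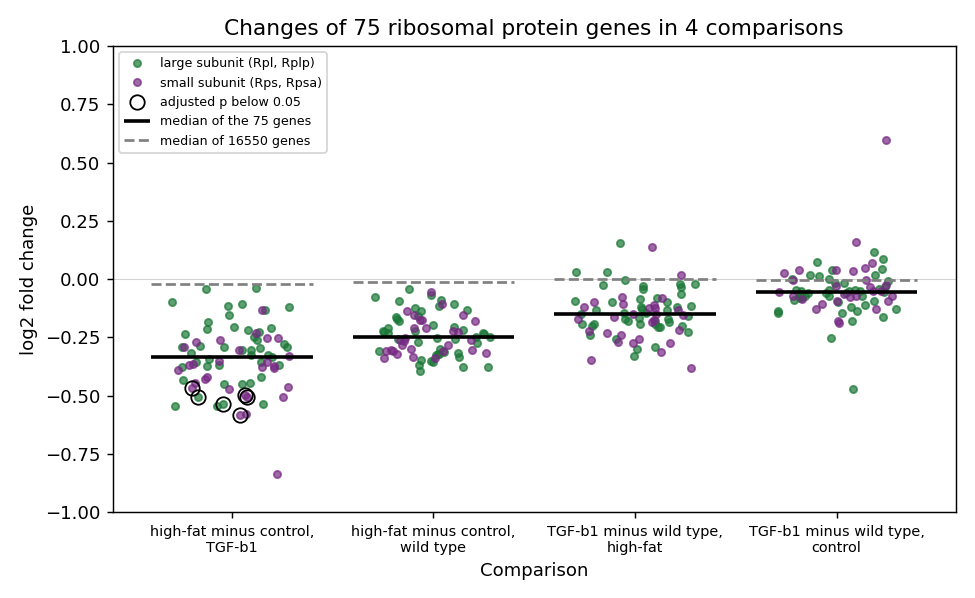
Log2 fold change (vertical axis) of each of the 75 ribosomal protein genes in 4 comparisons, with large and small subunit genes in different colours, circles around genes with an adjusted p below 0.05, a solid line at the median of the 75 genes and a dashed line at the median of the 16550 genes tested. The medians are -0.34 and -0.25 for the high-fat diet in transgenic and wild-type tissue, and -0.15 and -0.05 for the transgene on the high-fat and the control diet.

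The diet change averaged over both genotypes, a contrast of the same fit added after the data were seen, called 20 of the 75 genes lower (26.7%) and 0 higher, against 7.98% and 9.43% of all genes. Among the lowest p-values were those of Rps6 at -0.39 ± 0.09, Rplp1 at -0.45 ± 0.10, Rpl7 at -0.43 ± 0.10 and Rps3 at -0.40 ± 0.09 (log2, SE; adjusted p of 0.0104 to 0.0125 by edgeR), and these 4 passed in all 12 fits that left out 1 library. Rps4x, Rplp2, Rps27, Rpsa, Rpl41, Rpl22, Rps2 and Rpl5 were also called. The count ranged from 7 to 28 over those fits.

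The transgene itself moved none of the ribosomal protein genes past the threshold on either diet. On the high-fat diet the median log2 fold change of transgenic over wild-type tissue was -0.15 against 0.00 over all genes, with 70 of 75 values negative where 49.7% of all genes were. edgeR called 0 of the 75 genes, as it called 0 of all genes in either direction, and every alternative fit run, DESeq2 and limma-voom included, also called 0 of the 75. Of the 75, 1 gene had an unadjusted p below 0.05, against 2.98% of all genes lower. That gene was Rps27, with 206, 224 and 195 CPM in the transgenic high-fat libraries against 256, 268 and 289 CPM in the wild-type high-fat libraries, a change of -0.38 ± 0.16 (log2, SE; adjusted p = 0.714 by edgeR). The groups did not overlap for 2 genes, Rps27 among them, against 6.44% of all genes with the transgenic libraries lower. Among the next smallest p-values, Rpl36a had a change of -0.30 ± 0.16, Rps23 one of -0.31 ± 0.17 and Rpl5 one of -0.26 ± 0.14.

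On the control diet the median for the transgene was -0.05, with 57 of 75 values negative where 51.0% of all genes were. edgeR called 0 of the 75 genes, against 0.0242% of all genes lower and 0.0121% higher, and 0 of the 75 had an unadjusted p below 0.05, against 5.78% of all genes lower and 5.20% higher, with 0 called in every alternative fit run. Leaving out wild-type control-diet library 3 turned the median to 0.09, and limma-voom gave 0.02, so it had no steady direction. The genes with the smallest p-values after Rps18 were Rps26 at -0.19 ± 0.14, Rps2 at 0.16 ± 0.13, Rpl29 at -0.47 ± 0.43 and Rpl3 at -0.14 ± 0.13.

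Rps18, a protein of the small subunit head, had the largest change in this comparison, 0.60 ± 0.34 (log2, SE; adjusted p = 0.543 by edgeR), through a single library. It had 68.8, 54.1 and 175 CPM in the transgenic control-diet libraries, against 63.8, 56.9 and 75.9 CPM in the wild-type control-diet libraries. Transgenic control-diet library 3 held 175 CPM where the other 11 libraries held 44.9 to 75.9 CPM. The Rps18 pseudogene entries had 19.8 CPM in that library, against 18.7 to 43.6 CPM in the others. That library is also one of the pair rich in muscle genes. The other of the pair, wild-type high-fat library 3, had 66.3 CPM of Rps18. The part of muscle in the Rps18 value was not tested. Without transgenic control-diet library 3 the change was -0.09. Rps18 also had the lowest log2 fold change of the 75 genes on the high-fat diet in transgenic tissue, -0.84 ± 0.34 (SE; adjusted p = 0.141 by edgeR), which did not pass. This change was -0.14 without transgenic control-diet library 3 (adjusted p = 0.654 by edgeR), and with no filter on low counts it passed, at -0.83 (adjusted p = 0.0341 by edgeR). Over all alternatives the adjusted p lay between 0.0341 and 0.669.

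The difference between genotypes in the response to diet was tested as an interaction, and 0 of the 75 genes passed, as did 0 of all 16550 genes. At an unadjusted p below 0.05 the count was also 0 of 75, against 2.58% of all genes lower and 3.03% higher. The count of genes called was 0 in every alternative fit run as well. The median was -0.12, with 61 of 75 values negative where 48.7% of all genes were. The smallest p-values were those of Rps18 at -0.73 ± 0.48, Rps15a at -0.31 ± 0.22, Rpl36a at -0.29 ± 0.23, Rps6 at -0.21 ± 0.17 and Rps27 at -0.27 ± 0.23 (log2, SE; adjusted p of 0.890 to 0.917 by edgeR). The 6 calls in transgenic tissue and 0 in wild-type tissue are therefore not shown to differ between the genotypes.

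The 75 genes largely shared 1 pattern over the libraries. The part of their log2 variance that a single value per library accounts for was 61.8% over 75 genes and 74.9% over the 73 genes above 10 CPM, against 46.3% for 76 mitochondrial ribosomal protein genes, 41.7% for 17 elongation factors and other TOP mRNAs, 22.5% for 36 ribosome biogenesis genes and 16.7% for 31 initiation factors. It was 7.3% for 10 ribosomal proteins outside the symbol rule and 6.1% for 17 genes of the mTOR pathway and of TOP mRNA control. This is a description over the same 12 libraries, which include the differences between groups, and sequencing depth was nearly the same in all. No cut at 10 CPM was applied to the other lists, so the 61.8% is the value to set beside theirs. The 10 genes outside the symbol rule include Rpl3l, a gene of very low counts. The part of single genes in their 7.3% was not tested. Wild-type control-diet library 3 was highest for 63 genes, transgenic control-diet library 1 for 7 and library 3 of that group for 3. Transgenic high-fat library 3 was lowest for 45 genes, library 2 of that group for 21 and wild-type high-fat library 1 for 8. Transgenic high-fat library 1 lay near the middle, with 36 of 75 genes above their own mean, against 2 and 1 in the other transgenic high-fat libraries. The wild-type high-fat libraries were split too, with 1 gene above its own mean in library 1, against 39 and 43 in libraries 2 and 3. In 53 genes the group means ran, from low to high, transgenic high-fat, wild-type high-fat, transgenic control diet and wild-type control diet, and in 16 the control-diet groups changed places.

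**Figure D5:**
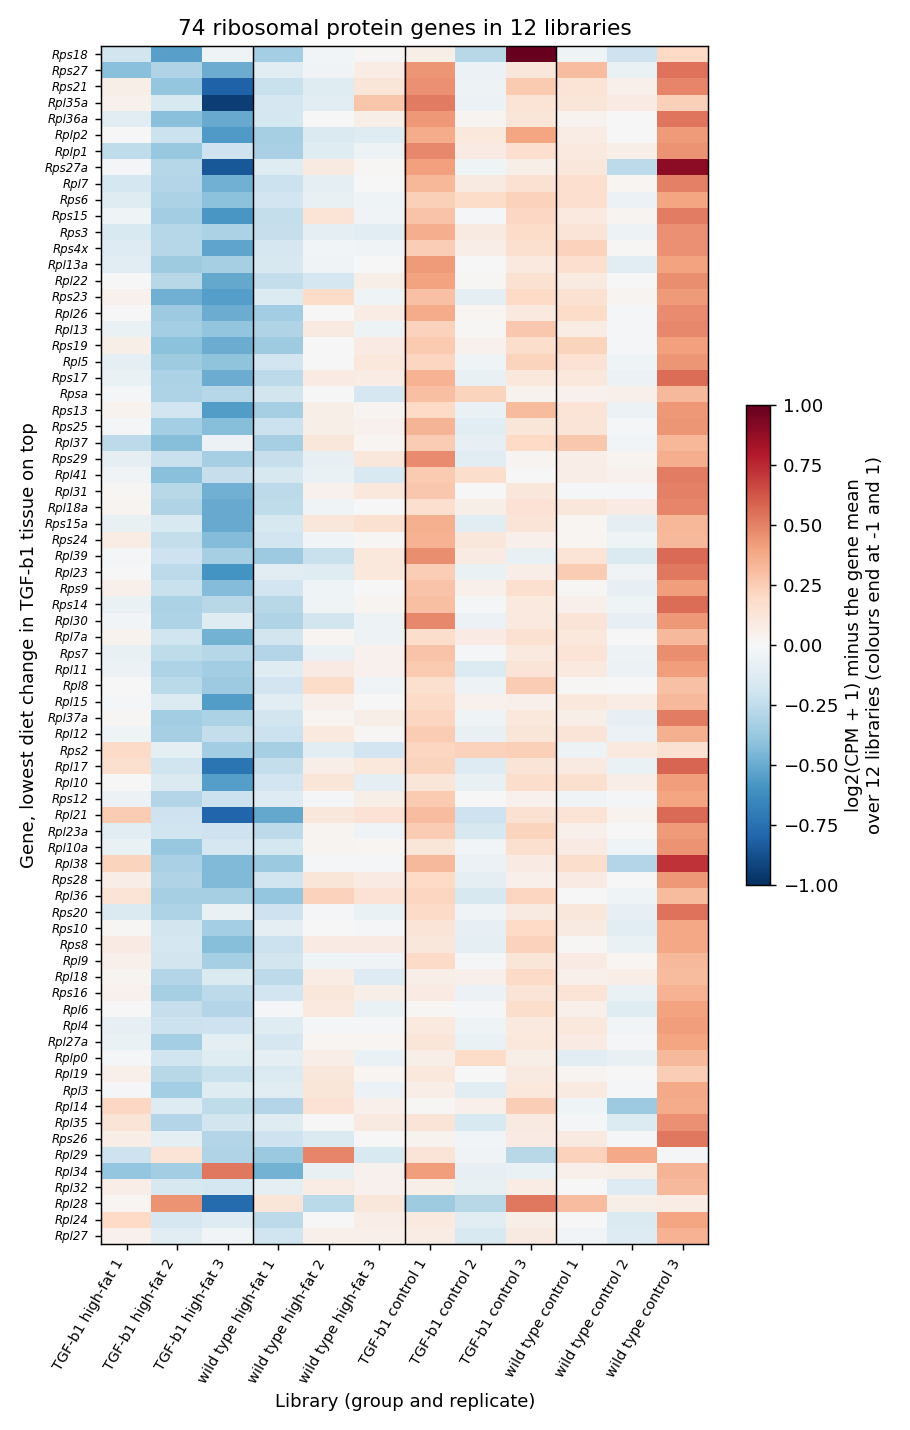
Deviation of each of 74 ribosomal protein genes (rows, lowest diet change in transgenic tissue on top) from its own mean over 12 libraries, as log2(CPM + 1), by library (columns, 3 per group), with colours ending at -1 and 1. Wild-type control-diet library 3 is above the mean in nearly all genes. Transgenic high-fat libraries 2 and 3 and wild-type high-fat library 1 are below it in nearly all. Single cells of another colour mark Rps18, Rpl34 and the low-count genes Rpl28 and Rpl29.

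Single genes departed from this shared course. The largest within-group SDs of log2 CPM were those of Rpl28 (1.05), Rpl29 (0.51), Rps18 (0.49), Rps27a (0.39) and Rpl21 (0.38), against a median of 0.20 over the 75 genes and 0.22 over all 16550 genes. Among genes with a mean of at least 10 CPM the median SD was 0.19 over 73 ribosomal protein genes and 0.16 over all such genes. Rps27a had 98.5, 81.8 and 55.2 CPM in the transgenic high-fat libraries, 92.0, 106 and 101 CPM in the wild-type high-fat libraries, 133, 97.0 and 104 CPM in the transgenic control-diet libraries and 109, 83.2 and 187 CPM in the wild-type control-diet libraries, so its highest and lowest values fell in the 2 libraries that were extreme for most genes. Rpl21, which has 40 other genes sharing windows with it, had 121, 88.1 and 58.4 CPM in the transgenic high-fat libraries, against 126, 88.1 and 113 CPM in the transgenic control-diet libraries. Rpl34 went the other way in 1 library. It had 18.3, 18.7 and 35.3 CPM in the transgenic high-fat libraries, against 32.6, 22.7 and 23.0 CPM in the transgenic control-diet libraries, while its pseudogene entries had 71.1, 60.2 and 34.0 CPM in the transgenic high-fat libraries, against 93.4, 71.8 and 76.3 CPM in the transgenic control-diet libraries. In transgenic high-fat library 3 the gene was thus at its highest of the 12 libraries and its pseudogenes at their lowest.

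Markers of other cell types differed between the same libraries. Mesothelial markers, 8 of 8 detected, summed to 123 to 365 CPM in the transgenic high-fat libraries, 364 to 466 CPM in the wild-type high-fat libraries, 637 to 737 CPM in the transgenic control-diet libraries and 566 to 906 CPM in the wild-type control-diet libraries, and 4 of the 8 were called lower on the high-fat diet in transgenic tissue. Transgenic high-fat library 3 was lowest in mesothelial markers and in fibroblast and progenitor markers (3529 CPM), and wild-type control-diet library 3 highest in both (906 and 5383 CPM), the 2 libraries at the ends of the ribosomal protein range. Dendritic cell markers ran the other way, at 177 to 245 CPM in the transgenic high-fat libraries and 169 to 187 CPM in the wild-type high-fat libraries, against 70.5 to 99.3 CPM in the transgenic control-diet and 90.9 to 119 CPM in the wild-type control-diet libraries. Endothelial markers were lowest in wild-type control-diet library 3 (629 CPM). They summed to 851 to 913 CPM in wild-type high-fat against 629 to 769 CPM in wild-type control-diet libraries, and overlapped in transgenic tissue. Schwann cell markers summed to 326 to 350 CPM in transgenic high-fat against 227 to 282 CPM in transgenic control-diet libraries, with 2 called higher, and overlapped in wild-type tissue. Smooth muscle markers overlapped in both genotypes. Lymph node stroma and plasma cell markers summed to 231 to 341 CPM in the transgenic high-fat libraries and 265 to 282 CPM in the wild-type high-fat libraries, against 382 to 455 CPM in the transgenic control-diet and 354 to 472 CPM in the wild-type control-diet libraries, with no overlap in either genotype. Of the 8 genes of this list, 1 was called lower in transgenic tissue and 0 in wild-type tissue. B cell markers summed to at most 19.3 CPM in any library, and T and NK cell markers to at most 16.2 CPM. Erythroid genes summed to 423 to 759 CPM in the transgenic high-fat libraries and 311 to 446 CPM in the wild-type high-fat libraries, against 654 to 1203 CPM in the transgenic control-diet and 597 to 982 CPM in the wild-type control-diet libraries, overlapping in transgenic tissue only. Macrophage markers summed to 714 to 1047 CPM in the transgenic high-fat libraries, against 530 to 579 CPM in the transgenic control-diet libraries. In wild-type tissue they overlapped, at 758 to 951 CPM on the high-fat diet and 691 to 889 CPM on the control diet. Cell cycle genes summed to 73.4 to 107 CPM in the transgenic high-fat libraries, against 49.3 to 63.0 CPM in the transgenic control-diet libraries, and to 73.8 to 86.8 CPM in the wild-type high-fat libraries, against 50.6 to 61.9 CPM in the wild-type control-diet libraries. Adipocyte markers summed to 25230 to 27000 CPM in the transgenic high-fat libraries, against 30160 to 36070 CPM in the transgenic control-diet libraries, and overlapped in wild-type tissue, at 24620 to 28640 CPM on the high-fat diet and 25550 to 33240 CPM on the control diet. In transgenic tissue 1 of the 8 adipocyte genes was called higher on the high-fat diet and 1 lower. The 8 fibroblast and progenitor genes were split in the same way. Pancreas markers were at most 0.726 CPM in any library. The part of these cell types in the ribosomal protein values was not tested.

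Ribosomal proteins that the symbol rule leaves out served as a comparison. Of 12 such genes, 10 were measured, and Rpl10l and Rpl39l, copies used in testis, did not pass the filter. On the high-fat diet the median of the 10 was -0.09 in transgenic tissue, with 8 values negative. In wild-type tissue it was -0.04, with 7 negative. Fau, a ribosomal protein made as a fusion with a ubiquitin-like protein, had a log2 fold change of -0.11 ± 0.16 on the high-fat diet in transgenic tissue, and Rack1, the scaffold protein of the small subunit, had -0.32 ± 0.11 (adjusted p = 0.103 by edgeR). Rack1 passed in the diet change averaged over genotypes, at -0.27 ± 0.08 (adjusted p = 0.0401 by edgeR). Rps3a1 had -0.33 ± 0.39, Rpl7l1 -0.05 ± 0.10, Rpl22l1 -0.15 ± 0.20, Rpl36al -0.08 ± 0.11, Rps27l 0.12 ± 0.14 and Rpl3l, the muscle form of Rpl3, -2.71 ± 0.99, none of which passed in transgenic tissue. Rpl3l had 0.479, 0.0958 and 0.199 CPM in the transgenic high-fat libraries, against 0.446, 0.523 and 4.15 CPM in the transgenic control-diet libraries, where the highest value was that of muscle-rich library 3. Rps4l, a copy related to Rps4x, rose: it had 17.9, 9.10 and 18.6 CPM in the transgenic high-fat libraries, against 7.09, 7.79 and 8.89 CPM in the transgenic control-diet libraries, a change of 0.94 ± 0.26 (log2, SE; adjusted p = 0.0444 by edgeR) with no overlap.

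The other parts of the translation machinery were read against 3.34% of all genes called lower on the high-fat diet in transgenic tissue and 7.98% in the average over genotypes. Of 17 elongation factors and other TOP mRNAs, 15 had a negative value on the high-fat diet in transgenic tissue (median -0.21) and 15 in wild-type tissue (median -0.17), with 0 called in either. In the average over genotypes 2 of the 17 were called lower, Eef1a1, the factor that brings aminoacyl-tRNA to the ribosome, at -0.28 ± 0.09 (adjusted p = 0.0439 by edgeR), and Tpt1 at -0.45 ± 0.12 (adjusted p = 0.0221 by edgeR). Tpt1, whose mRNA is a known TOP mRNA, had 1086, 932 and 711 CPM in the transgenic high-fat libraries, against 1501, 1302 and 1264 CPM in the transgenic control-diet libraries. Its groups did not overlap.

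Of 31 initiation factors, Eif4a2, an RNA helicase of the cap-binding complex, was called lower in transgenic tissue, with 206, 246 and 168 CPM in the high-fat libraries, against 332, 294 and 290.3 CPM in the control-diet libraries (change -0.56 ± 0.16, log2, SE; adjusted p = 0.0437 by edgeR). The average over genotypes called 2 lower, Eif4a2 and Eif3m, a subunit of the initiation factor eIF3. The median of the 31 was -0.01 in transgenic tissue and -0.12 in wild-type tissue. Of 36 ribosome biogenesis genes, Nop10, a component of the H/ACA particles that modify rRNA, was called lower in transgenic tissue, with 53.0, 60.9 and 58.4 CPM in the high-fat libraries, against 88.1, 80.4 and 67.8 CPM in the control-diet libraries (change -0.45 ± 0.12, log2, SE; adjusted p = 0.0311 by edgeR). The median of the 36 was -0.08 there and -0.06 in wild-type tissue, and the average over genotypes called 4 lower, Nop10, Fbl (fibrillarin, the rRNA methyltransferase), Polr1c (a subunit of RNA polymerase I and III) and Pes1. Of 17 genes of the mTOR pathway and of TOP mRNA control, 0 were called in either genotype, with medians of 0.04 in transgenic and -0.09 in wild-type tissue. Mycn, a transcription factor of the Myc family, was called higher in the average over genotypes, at under 2 CPM in every library. Larp1, which binds TOP mRNAs, had a log2 fold change of 0.17 ± 0.12 in transgenic tissue and 0.30 ± 0.12 in wild-type tissue, and neither passed.

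The 76 mitochondrial ribosomal protein genes, which serve the separate ribosome of mitochondria, differed in their medians between the groups in another order. On the high-fat diet their median was -0.10 in transgenic tissue, with 53 of 76 values negative and 1 called lower, against 3.34% of all genes. In wild-type tissue it was -0.26, with 73 of 76 negative and 2 called lower, against 0.453% of all genes. For the cytosolic genes the same medians were -0.34 in transgenic and -0.25 in wild-type tissue. The diet average over genotypes called 20 of the 76 mitochondrial genes lower, as many as of the 75 cytosolic genes, against 7.98% of all genes. Its median was -0.18 for the mitochondrial and -0.29 for the cytosolic genes. For the transgene on the high-fat diet the mitochondrial median was 0.09, with 63 of 76 values positive, where the cytosolic median was -0.15, with 70 of 75 negative. The interaction median was 0.16 for the mitochondrial and -0.12 for the cytosolic genes, and edgeR called 0 genes of either list in the interaction, where 0 of all genes were called. Mrpl38, a large subunit protein of the mitochondrial ribosome, was called in both genotypes. It had 68.0, 64.6 and 67.4 CPM in the transgenic high-fat libraries, against 87.7, 76.6 and 83.6 CPM in the transgenic control-diet libraries, a change of -0.31 ± 0.09 (log2, SE; adjusted p = 0.0431 by edgeR). In wild-type tissue it changed by -0.43 ± 0.09 (adjusted p = 0.0380 by edgeR). Mrpl16 was called in wild-type tissue, with 18.9, 19.0 and 19.6 CPM in the high-fat libraries, against 27.0, 28.6 and 28.1 CPM in the control-diet libraries (change -0.54 ± 0.11; adjusted p = 0.0354 by edgeR), and had -0.03 ± 0.11 in transgenic tissue. The high-fat contrasts of the transgene and of diet share the transgenic high-fat libraries, so the values stand side by side and are not independent of each other.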

How the data were processed

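RNA-seq libraries (DNBseq, per the labels' protocols) from 12 samples were analysed in 4 groups of 3, taken from the sample titles, which match the genotype and diet labels. The authors deposited whole-number read counts per gene symbol, not normalized. The submitters' processing notes name the mm10 build, the aligner HISAT2 (2.2.0), the counter HTSeq (2.0) and DESeq2 (1.32.0). Neither the annotation nor the strand setting is given in the sources used here, and overlapping genes on opposite strands cannot be told apart. The 5 summary entries stayed out of library sizes and tests, among them reads with more than 1 alignment (6.72% to 11.8% of reads). The authors' deposited comparison tables, from DESeq2 per the file headers, give a log2 fold change, a mean normalized signal, a test score and raw and adjusted p-values per gene, and only their calls are quoted here.

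The fit used edgeR 4.0.16 in R 4.3.3: filterByExpr by group (minimum count 10), TMM scaling, a group-means model with 8 residual degrees of freedom, and the quasi-likelihood test with Benjamini-Hochberg adjustment over 16550 genes, called at 0.05. CPM values are TMM-scaled. DESeq2 1.42.0, limma 3.58.1 (voom), other scalings and filters, a replicate block and left-out libraries were the alternatives. The fits were tested on simulated data. Every one of the 66 library pairs differed by more than counting noise (lowest chi-square divided by its degrees of freedom, 20.7).

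The members and gene lists were chosen with earlier results of these data known. The genes named were the 5 members with the smallest p in each comparison, the 5 highest and 5 lowest per kb, the 5 with the largest within-group SD, those that did not pass the filter, a panel of 18 well known members, all 12 ribosomal proteins outside the rule, and the called genes of the other lists. In the average over genotypes only 12 of the 20 called members are named. Some genes that this rule names are not reported here.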

Additional observations from a re-analysis of the deposited data

How the results depend on the processing

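Medians of the 75 log2 fold changes kept their sign in both diet comparisons under every setting run: other scalings (RLE, library totals, TMM without these genes), DESeq2, limma-voom, no filter, only the compared groups, pseudogene counts added, and libraries left out. Leaving out 1 library gave medians of -0.44 to -0.26 for diet in transgenic tissue, -0.32 to -0.10 in wild-type tissue, -0.34 to -0.22 for their average, -0.27 to -0.10 for the transgene on the high-fat diet, -0.16 to 0.09 for the transgene on the control diet, and -0.26 to -0.03 for the interaction. The number of genes called moved more. In transgenic tissue 6 became 1 with library totals, 12 with DESeq2, 0 with only the compared groups, 0 without both epithelium-rich libraries, 0 without both muscle-rich libraries, and 0 to 9 with 1 library left out, where fewer libraries also leave fewer degrees of freedom. Of the 6, Rps6 passed in 7 of those 12 fits, Rplp1 in 4, Rps27 in 3, and Rpl7 and Rps3 in 2. The average over genotypes, added after seeing the data, gave 20, against 8 with library totals, 31 with DESeq2, 10 without both epithelium-rich libraries, 11 without both muscle-rich libraries, and 7 to 28 with 1 library left out. Replicate numbers were not treated as pairs in the main fit: of 18 same-numbered pairs 4 correlated above 0.1 (-0.11 to 0.27). Differently numbered pairs were not set beside them, so this cannot decide whether the libraries were paired. With a replicate block the counts were 1 for transgenic tissue and 10 for the average. For Rps18 the transgene change on the control diet was 0.60, against -0.09403 without both muscle-rich libraries and -0.09444 to 0.888 with 1 library left out, and its interaction of -0.73 became 0.02746 without both muscle-rich libraries. The lowest of these had transgenic control-diet library 3 left out. The cause was not tested beyond the single library that sets it. Without the 50 most abundant genes in the denominator the shares were 2.15% (transgenic high-fat), 2.47% (wild-type high-fat), 2.81% (transgenic control diet) and 2.85% (wild-type control diet), larger by construction. Rpl28 and Rpl29, at 1 to 44 counts per library, had the lowest counts of the 75 genes and so the widest counting error.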
